A study of Mus musculus with 9 samples.

Results

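The phospholipase A2 transcripts of the mouse colon were followed in 9 mice by 10 genes that were listed by symbol, namely Pla2g4c, Pla2g4a, Pla2g2a, Pla2g5, Pla2g6, Pla2g7, Pla2g10, Pla2g12a, Pla2g15 and Pla2g16. All 10 genes had counts, among 22262 genes with a count in any library. The list was drawn up by family with the levels of Pla2g4c under both housing environments in view, and so was chosen by values of that comparison. The difference between environments is therefore described for these genes by levels and fitted fold changes. Counts of listed genes under a test limit are given only beside the share of all genes, and no conclusion is drawn from those counts. All animals were wild-type female C57BL/6N mice aged 12 months, and no genotype other than wild type entered. Of these, 4 mice, numbered 1, 2, 3 and 5, lived in the standard environment (WT_SE, n = 4). The other mice, numbered 1 to 5, lived from weaning in the enriched environment (WT_EE, n = 5), with co-housing in larger cages, objects that were moved regularly, tunnels and running wheels. The labels give no cage per mouse, so a shared cage and the environment cannot be told apart. The tissue was a rinsed piece of the upper colon, from which 3′ mRNA libraries carrying molecular identifiers were made.

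Phospholipases A2 cut the fatty acid from the middle position of a membrane phospholipid and leave a lysophospholipid. The freed fatty acid is often arachidonic acid, the precursor of prostaglandins and leukotrienes, and the lysophospholipid can be rebuilt by acyltransferases or broken down further. The family holds cytosolic enzymes of group IV, secreted enzymes, calcium-independent enzymes, lysosomal enzymes and enzymes that act on platelet-activating factor. In the gut, secreted members are known for action on bacterial membranes, and cytosolic members supply the prostaglandin pathway of the mucosa.

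Promoter windows were read for the listed genes from RefSeq on GRCm38.p6, each with 250 bases before and 50 bases after an annotated transcript start. Windows were found for 9 of the 10 genes, 13 in all. The windows of Pla2g4c and Pla2g10 are shown because these genes had the widest and the narrowest spread between mice of the same environment, as described further on. They were searched on both strands for 5 motifs, AP-1 (TGANTCA), CRE (TGACGTCA), the TATA box (TATAAA), the GC box (GGGCGG) and the CCAAT box (CCAAT). Capitals mark the matches. The first Pla2g4c window lies at chr7:13325417-13325716 and the second at chr7:13329072-13329371, both on the plus strand, and the Pla2g10 window at chr16:13730435-13730734 on the minus strand.
Pla2g4c, first window: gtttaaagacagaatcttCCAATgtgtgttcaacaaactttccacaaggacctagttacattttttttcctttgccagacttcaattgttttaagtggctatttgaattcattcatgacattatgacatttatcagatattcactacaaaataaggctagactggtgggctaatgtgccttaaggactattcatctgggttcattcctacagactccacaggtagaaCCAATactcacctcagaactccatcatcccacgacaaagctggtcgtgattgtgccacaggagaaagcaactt
Pla2g4c, second window: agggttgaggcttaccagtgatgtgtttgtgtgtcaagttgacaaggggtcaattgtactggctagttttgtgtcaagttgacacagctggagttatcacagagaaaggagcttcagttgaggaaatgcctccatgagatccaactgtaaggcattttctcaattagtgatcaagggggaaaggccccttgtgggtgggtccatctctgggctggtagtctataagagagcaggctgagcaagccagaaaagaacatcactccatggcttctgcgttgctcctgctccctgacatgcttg
Pla2g10: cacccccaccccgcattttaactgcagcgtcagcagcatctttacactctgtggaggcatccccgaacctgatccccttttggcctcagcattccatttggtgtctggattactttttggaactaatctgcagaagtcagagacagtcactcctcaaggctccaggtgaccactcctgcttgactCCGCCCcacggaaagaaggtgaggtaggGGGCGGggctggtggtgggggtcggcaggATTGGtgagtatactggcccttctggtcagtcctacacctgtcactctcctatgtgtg

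The first Pla2g4c window held 2 CCAAT boxes and the second held none of the 5 motifs, at a GC content of 39.33% and 48.67%. The Pla2g10 window held 2 GC boxes and 1 CCAAT box at a GC content of 55.67%. Among all 32851 RefSeq windows of this length, 37.4% held a CCAAT box and 35.7% a GC box, while AP-1, CRE and the TATA box were matched in 7.81%, 1.79% and 13.6%. GC boxes were also matched in the windows of Pla2g6 (3), Pla2g7 (1), Pla2g15 (1) and Pla2g16 (1 in each of 2 overlapping windows), and not in those of Pla2g4a, Pla2g5 and Pla2g12a. An AP-1 match stood in both windows of Pla2g16, and a TATA box in the second of 2 windows of Pla2g4a. A match describes letters and is no evidence of binding.

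Levels are given as CPM (counts divided by the library total and rescaled) after scaling of the libraries by TMM, the trimmed mean of M values. Each count stands for a captured 3′ end and not for a stretch of transcript, so levels of different genes were compared without a length term. Library totals lay between 295535 and 454043 counts, and 3 counts, taken as the floor of detection, equalled 6.61 to 10.2 CPM of these totals. A gene with no count in a library may still have been present up to that level, and the floor covers counting error only. In a piece of colon tissue, fewer cells of a type and less RNA per cell cannot be told apart. The labelled tissue was set beside marker lists fixed for this work. The summed level of 10 epithelial markers was 2798 to 3515 CPM in WT_SE and 3008 to 3935 CPM in WT_EE, and that of 10 smooth muscle markers was 2514 to 3163 CPM and 2468 to 4267 CPM. These sums do not tell parts of the colon apart. For position, 6 proximal markers summed to 287 to 730 CPM in WT_SE and 209 to 660 CPM in WT_EE. The sums of 8 distal markers were 220 to 508 CPM and 306 to 579 CPM. The label of upper colon was not tested.

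Ordered by mean level over the 9 mice, Pla2g16 stood first with 168 CPM and Pla2g10 second with 156 CPM, at percentiles 90.5 and 89.2 of the 17441 genes tested. They were followed by Pla2g4c with 65.8 CPM, Pla2g4a with 50.7 CPM and Pla2g12a with 35.4 CPM. Pla2g7 had 26.3 CPM, Pla2g5 25.8 CPM, Pla2g2a 19.3 CPM, Pla2g15 16.2 CPM and Pla2g6 9.22 CPM. The first pair of genes lay above every other listed gene in each of the 4 WT_SE mice, whereas Pla2g4c exceeded both in WT_EE mouse 4. Pla2g16 and Pla2g10 changed places between mice, and from Pla2g4c downwards the ranges of neighbours in this order overlapped over the 9 mice. The mean of Pla2g4c rests on a few mice, since it lay below the level of Pla2g4a in 6 of the 9.

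**Figure D1:**
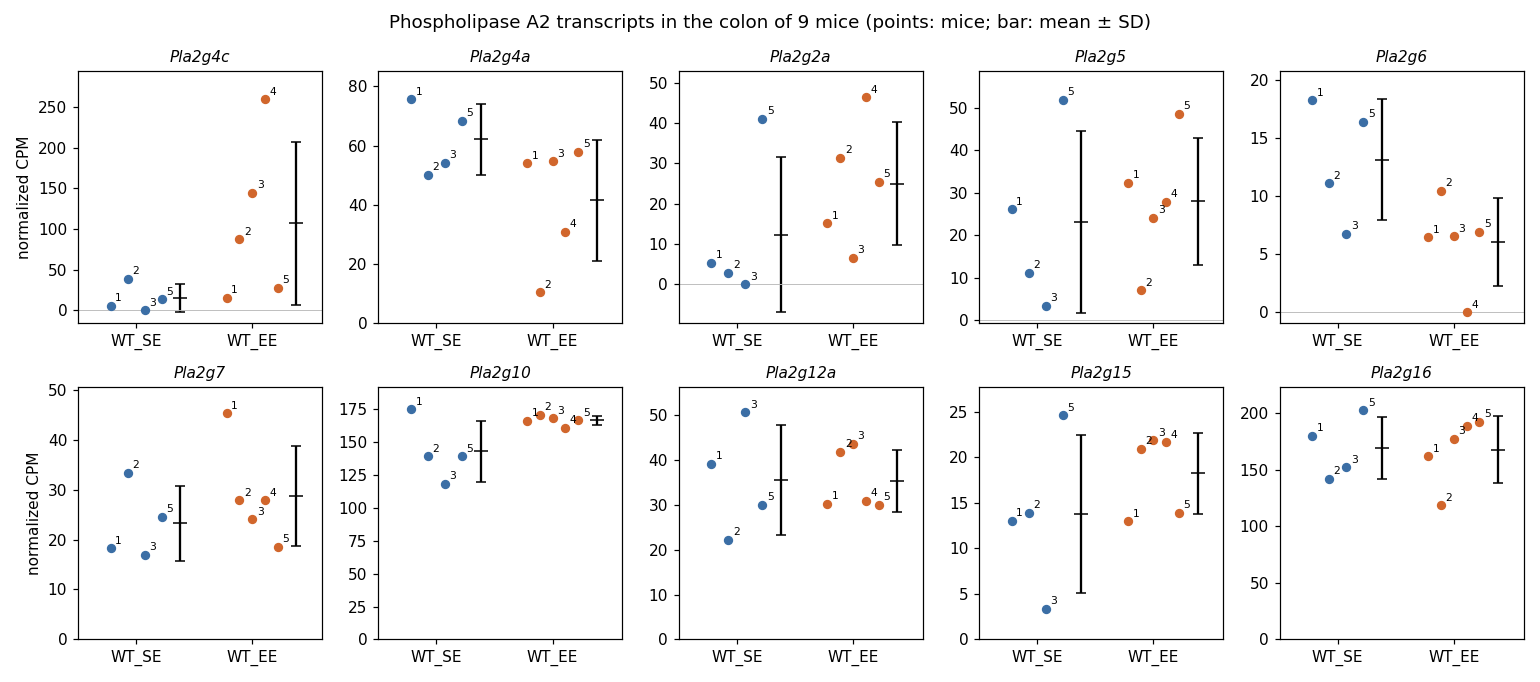
Normalized CPM of each listed gene (vertical axes, a scale of its own per gene) in the 4 WT_SE and 5 WT_EE mice; points are mice with their numbers, and the bars give the mean ± SD. Pla2g4c spread from 15.1 to 260 CPM within WT_EE, while Pla2g10 stayed between 161 and 171 CPM there.

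Among the cytosolic enzymes, Pla2g4c (ENSMUSG00000033847, chr7:13324655-13360672, plus strand, GRCm38) encodes the group IVC enzyme, which lacks the calcium-binding domain of its relatives. In WT_SE mice 1, 2, 3 and 5 it had 5.22, 39.0, 0 and 13.7 CPM, from 2, 14, 0 and 5 counts. In WT_EE mice 1 to 5 it had 15.1, 87.1, 144, 260 and 27.8 CPM, from 7, 25, 66, 84 and 12 counts. WT_EE mice 2, 3 and 4 lay above every WT_SE mouse, whereas WT_EE mice 1 and 5 lay within the WT_SE range, so the groups overlapped. WT_SE averaged 14.5 ± 17.3 CPM (SD, n = 4) and WT_EE averaged 107 ± 99.8 CPM (SD, n = 5), and the fitted log2 fold change of WT_EE over WT_SE was 2.76 ± 0.57 (SE). Without WT_EE mouse 4 the log2 fold change was 2.17, and without WT_SE mouse 2 it was 3.88. The standard error depended on the fit, at 1.09 with DESeq2, 1.03 with limma-voom and 0.30 without a filter on low counts.

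The names of 7 libraries end in L2, and those of WT_SE mice 1 and 3 end in L3. What the ending stands for is not given in the sources used here. Pla2g4c was lowest in these 2 mice, and over the 7 libraries ending in L2 its log2 fold change was 1.97 ± 0.65 (SE). A neighbouring pseudogene, Pla2g4c-ps, had 1 count in WT_EE mouse 2 and 1 in WT_EE mouse 4. The last 300 bases of the full-length Pla2g4c transcripts aligned to the pseudogene over 41 bases at 70.7% identity, and those of the shorter transcript Pla2g4c-204 over 76 bases at 88.2%.

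Pla2g4a (ENSMUSG00000056220, chr1:149829618-149961290, minus strand) encodes the calcium-activated cytosolic enzyme that prefers arachidonic acid. It had 75.7, 50.1, 54.1 and 68.3 CPM in the WT_SE mice and 54.0, 10.5, 54.6, 30.9 and 57.8 CPM in the WT_EE mice. WT_EE mice 2 and 4 were the lowest of all 9, with 3 and 10 counts, and the other WT_EE mice lay within the WT_SE range. The means were 62.1 ± 12 CPM (SD, n = 4) and 41.6 ± 20.4 CPM (SD, n = 5), a log2 fold change of -0.51 ± 0.28 (SE). WT_EE mice 2 and 4 also had the highest smooth muscle sums, 4267 and 4215 CPM, and the highest epithelial sums. Without them, as an alternative chosen after seeing the data, the log2 fold change of Pla2g4a was -0.17 ± 0.25 (SE) and that of Pla2g4c was 2.05 ± 0.55 (SE). The part of tissue composition in these values was not tested.

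The secreted enzymes were led by Pla2g10 (ENSMUSG00000022683, chr16:13715057-13730983, minus strand), the group X enzyme, which is known for high activity on phosphatidylcholine. It had 175, 139, 118 and 139 CPM in WT_SE and 166, 171, 168, 161 and 167 CPM in WT_EE. The groups overlapped through WT_SE mouse 1, the highest of the 9 mice. The means were 143 ± 23.5 CPM (SD, n = 4) and 167 ± 3.68 CPM (SD, n = 5), with a log2 fold change of 0.21 ± 0.15 (SE). Within WT_EE the coefficient of variation was 2.21%, below the 12.4% that counting error alone gives at the mean count. Pla2g10 overlaps the antisense gene Pla2g10os, which had 5 to 17 counts per library, but they share no exon base in the annotation. Whether the counting used strand is not given in the sources used here.

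Pla2g2a and Pla2g5 are neighbours on chromosome 4, where the group IIA gene lies inside the group V gene on the opposite strand, with no shared exon base. Pla2g2a (ENSMUSG00000058908, chr4:138831857-138835186, plus strand) encodes an antibacterial secreted enzyme, and the annotation classes it as a polymorphic pseudogene, since C57BL/6 mice are known to carry a disrupted copy. Pla2g2a had 5.22, 2.78, 0 and 41.0 CPM in WT_SE, from 2, 1, 0 and 15 counts. It had 15.1, 31.4, 6.56, 46.4 and 25.5 CPM in WT_EE, from 7, 9, 3, 15 and 11 counts. Within WT_SE the level of mouse 5 was far above the rest, and the groups overlapped through it. The log2 fold change was 0.87 ± 0.57 (SE) with all mice and 2.90 ± 0.73 (SE) without WT_SE mouse 5. Over the libraries ending in L2 it was 0.10 ± 0.59 (SE).

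Levels of Pla2g2a were set beside the position marker Slc10a2, the bile acid transporter of the ileum and adjoining gut. Slc10a2 had 231 to 372 CPM in WT_SE mice 2 and 3 and WT_EE mice 1 and 3, where Pla2g2a had 0 to 15.1 CPM. Slc10a2 had 10.5 to 67.9 CPM in the other 5 mice, where Pla2g2a had 5.22 to 46.4 CPM. The position lists did not all run this way. In the mice high in Slc10a2, proximal Hoxb5 and Hoxb6 were also higher than in any other mouse. Proximal Hoxa7 was lower there (30.4 to 134 CPM, beside 141 to 180 CPM). Distal Hoxa10 and Hoxa13 were lower there, whereas distal Hoxd10 (10.8 to 61.3 CPM, beside 0 to 5.22 CPM) and Hoxd11 were higher. The remaining genes of both lists overlapped. With the Slc10a2 level as a covariate, chosen after seeing the data, the log2 fold change of Pla2g2a was 0.09 ± 0.57 (SE) and that of Pla2g4c was 2.54 ± 0.54 (SE). The part of the sampled position along the gut in these values was not tested.

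Pla2g5 (ENSMUSG00000041193, chr4:138799244-138863482, minus strand), which encodes the group V secreted enzyme, had 26.1, 11.1, 3.38 and 51.9 CPM in WT_SE. It had 32.4, 6.97, 24.0, 27.8 and 48.6 CPM in WT_EE. Its highest level of the 9 mice was in WT_SE mouse 5 and its lowest in WT_SE mouse 3, so the WT_SE range enclosed the whole WT_EE range. The log2 fold change was 0.28 ± 0.43 (SE), it was 1.01 without WT_SE mouse 5, and it turned to -0.02 without WT_SE mouse 3. Pla2g12a (ENSMUSG00000027999, chr3:129878606-129895825, plus strand), of the secreted group XII, averaged 35.6 ± 12.2 CPM (SD, n = 4) and 35.4 ± 6.81 CPM (SD, n = 5) under the standard and the enriched environment. Its mice lay between 22.3 and 50.7 CPM in WT_SE and between 30.1 and 43.7 CPM in WT_EE, and its log2 fold change was 0.00 ± 0.30 (SE).

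The remaining listed genes encode the calcium-independent enzyme (Pla2g6), the lipoprotein-associated hydrolase of platelet-activating factor (Pla2g7), the lysosomal enzyme (Pla2g15) and an enzyme first known from fat tissue (Pla2g16, Plaat3 in RefSeq). Pla2g6 (ENSMUSG00000042632, chr15:79286228-79328390, minus strand) had 7, 4, 2 and 6 counts in WT_SE and 3, 3, 3, 0 and 3 counts in WT_EE. All 5 WT_EE mice were at or under the floor. The log2 fold change was -1.10 ± 0.58 (SE), from 19 summed counts in WT_SE and 12 in WT_EE.

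Pla2g7 (ENSMUSG00000023913, chr17:43568098-43612201, plus strand) had 16.9 to 33.4 CPM in WT_SE and 18.5 to 45.3 CPM in WT_EE, with the highest level in WT_EE mouse 1. Its log2 fold change was 0.30 ± 0.35 (SE). Pla2g15 (ENSMUSG00000031903, chr8:106150399-106164715, plus strand) had 3.38 to 24.6 CPM in WT_SE and 12.95 to 21.9 CPM in WT_EE, and its log2 fold change of 0.34 ± 0.45 (SE) turned to -0.09 over the libraries ending in L2. Pla2g16 (ENSMUSG00000060675, chr19:7557459-7588545, plus strand) had 180, 142, 152 and 202 CPM in WT_SE and 162, 119, 177, 189 and 192 CPM in WT_EE. The ranges of these 3 genes overlapped between environments. The log2 fold change of Pla2g16 was -0.01 ± 0.16 (SE).

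**Figure D2:**
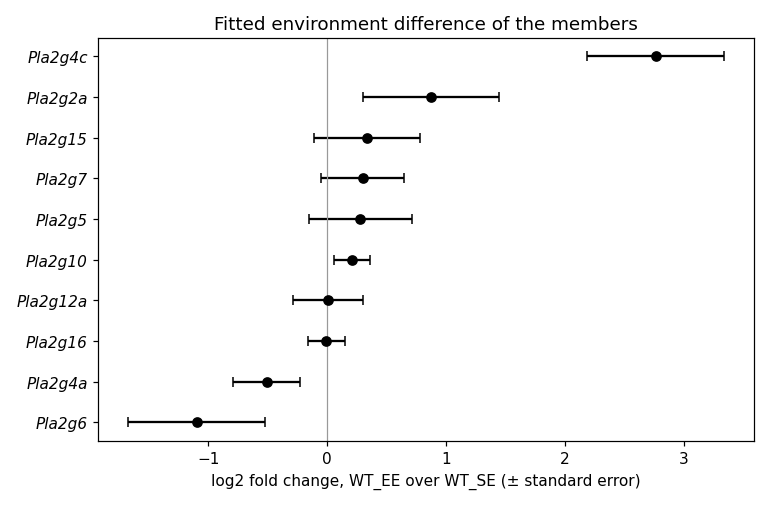
Fitted log2 fold change of WT_EE over WT_SE (horizontal axis) for each listed gene, with points for the estimate and bars for ± 1 standard error; the vertical line marks no difference. Pla2g4c stands at 2.76, Pla2g2a at 0.87, and Pla2g6 at -1.10, the lowest.

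An unadjusted p under 0.05 in edgeR's quasi-likelihood fit over all genes was the limit for calling a gene. This limit served as the background for the genes that were not listed, and it was passed by 7.65% of all 17441 genes tested, 4.31% higher and 3.34% lower in WT_EE. Beside this share, 1 of the 10 listed genes passed it, Pla2g4c, whose levels had led to the list. Across 21 alternative settings 1 listed gene passed in 14, 2 in 5 and 3 in 2, the last with limma-voom and without WT_SE mouse 5. After Benjamini-Hochberg adjustment none of the 10 passed, beside 0.0401% of all genes, or 7. None of the 10 had groups that did not overlap, beside 2.58% of all genes. The values had taken part in the choice of the list, so nothing is read from these counts. The median log2 fold change was 0.24 over the 10 genes and 0.01 over all genes tested.

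The summed level of the family was taken with and without Pla2g4c. The 10 genes together reached 510 ± 92.1 CPM (SD, n = 4) under the standard and 624 ± 111 CPM (SD, n = 5) under the enriched environment. Without Pla2g4c the other 9 genes summed to 495 ± 94.1 CPM and 517 ± 45.7 CPM. Pla2g4c made up 0% to 8.4% of the summed level in the WT_SE mice. In WT_EE mice 1 to 5 its share was 2.8%, 16.6%, 21.5%, 32.7% and 4.7%, so that it was the largest share of the family only in WT_EE mouse 4. Pla2g16 and Pla2g10 together held the first place in the other 8 mice, with 30.5% to 37.5% for the larger of them in WT_SE mice and WT_EE mice 1, 2 and 5, and with 26.4% for Pla2g16 in WT_EE mouse 3.

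The spread between mice of the same environment does not use the difference between environments. It was expressed as edgeR's biological coefficient of variation, an estimate of the part of the spread above counting error. This estimate is drawn toward the trend of genes of like level and is not the observed spread alone. Each value was set beside genes whose mean count was within 1.5 times that of the gene. Pla2g4c had 49.2% where the trend at its level was 16.7%, and 9 of 3117 genes of like level, itself among them, were at least as variable. The levels of Pla2g4c had led to the list, so its place is a description and no test. Pla2g2a had 47.4% against a trend of 22.7%, with 0.807% of its like-level genes at least as variable, and Pla2g5 had 34.8%, with 2.25%. The other 7 listed genes lay between 9.88% and 20.3%. Pla2g10 was at the low end, with 93.0% of 2559 genes of like level at least as variable. The listed genes thus ranged from among the most to among the least variable for their level.

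**Figure D3:**
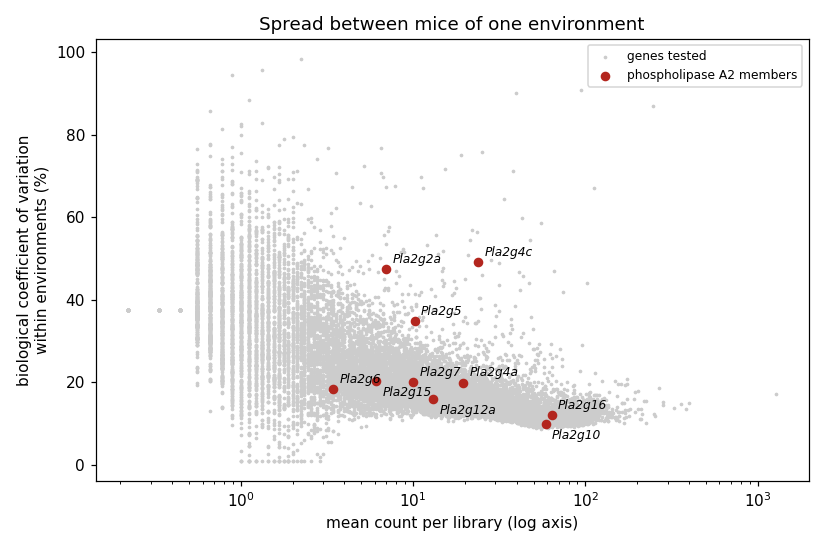
Biological coefficient of variation within environments (edgeR's estimate, drawn toward the trend, percent, vertical axis) against the mean count per library (log axis) for the genes tested, in grey, and the 10 listed genes, in red. Pla2g4c at 49.2% and Pla2g2a at 47.4% lie above the bulk of genes at their level, and Pla2g10 at 9.88% lies at its lower edge.

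The 8 like-level genes more variable than Pla2g4c were Cfd, Hoxb13, Nts, Hif3a, Reg3g, Prap1, B3gnt7 and Ces1g, named after their values were seen. Cfd is an adipocyte gene and Reg3g encodes an antibacterial lectin of the gut epithelium. Nts, Reg3g, Prap1 and Ces1g were each higher in WT_SE mice 2 and 3 and WT_EE mice 1 and 3 than in any other mouse. These were also the mice with the most Slc10a2. Hif3a was highest in WT_EE mouse 4, with 281 CPM, as was Pla2g4c, while Cfd was highest in WT_SE mouse 1 and B3gnt7 in WT_SE mouse 5. Hoxb13, a gene of the hindmost gut, had no count in WT_SE mice 2 and 3 and WT_EE mouse 1, and 10.4 and 153 CPM in WT_SE mice 1 and 5. In WT_EE mice 2 to 5 it had 157, 45.9, 74.2 and 46.3 CPM. WT_EE mouse 3, among the mice with the most Slc10a2, was thus close to WT_EE mouse 5 in Hoxb13, so these genes were not strictly opposed. Pla2g4c was 13.7 CPM in WT_SE mouse 5 and 87.1 CPM in WT_EE mouse 2. In WT_SE mice 2 and 3 and WT_EE mouse 1 it was 39.0, 0 and 15.1 CPM. The part of the sampled position in the spread of Pla2g4c was not tested.

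The genes whose pattern was most like that of Pla2g4c were taken by Pearson's r of log2 CPM over the 9 mice, among 10829 genes with a mean of at least 5 counts. They were Pea15a (r = 0.98), Lta4h (0.96), Cnksr1 (0.95), Clip3 (0.95) and Bclaf3 (0.94), with Spearman's rho of 1, 0.95, 0.95, 0.93 and 0.92. Pea15a had 67.6 to 97.5 CPM in WT_SE and 97.2 to 152 CPM in WT_EE. Its order over the 9 mice was that of Pla2g4c, with the lowest level in WT_SE mouse 3 and the highest in WT_EE mouse 4. These values were picked as the highest of many, all 9 points share the split into environments, and they are a description. Lta4h encodes leukotriene A4 hydrolase, which makes leukotriene B4 downstream of phospholipase A2.

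**Figure D4:**
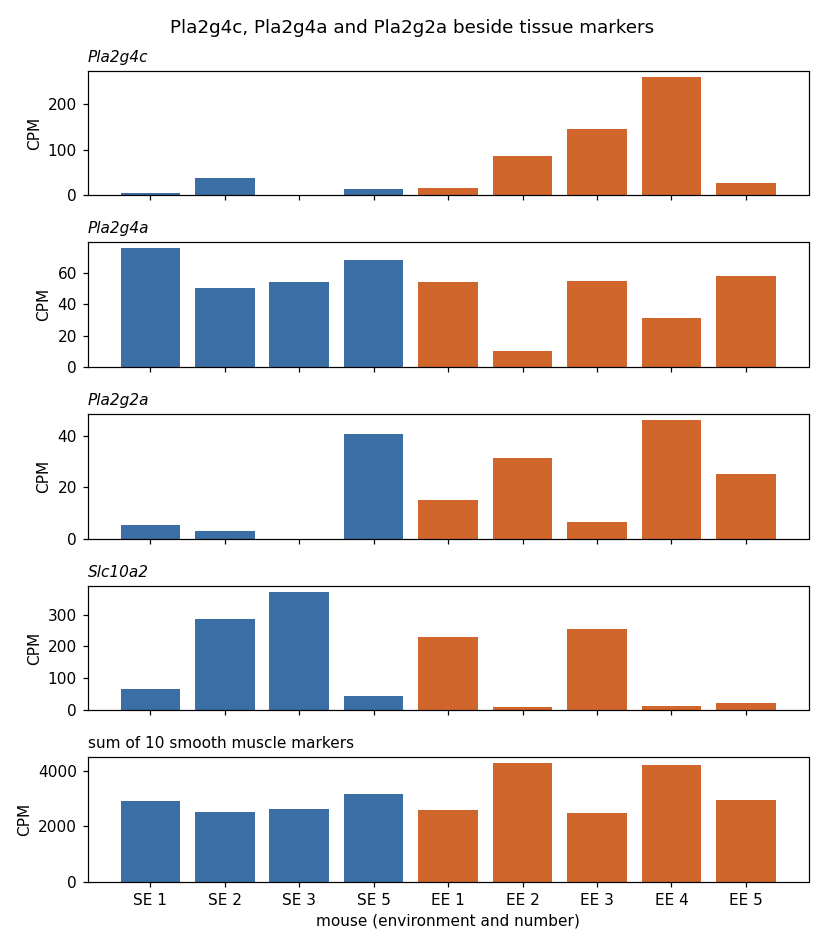
CPM per mouse (vertical axes, starting at 0) of Pla2g4c, Pla2g4a, Pla2g2a, Slc10a2 and the sum of 10 smooth muscle markers, with WT_SE mice in blue and WT_EE mice in orange. Pla2g4a is lowest in WT_EE mice 2 and 4, where the smooth muscle sum is highest, and Pla2g2a is at most 15.1 CPM in the 4 mice with Slc10a2 at 231 CPM or more.

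To ask whether listed genes followed a cell type within an environment, 6 pairs of gene and marker list were compared over the 9 mice as deviations from the environment means, with two-sided permutation tests of 100000 resamples. None of the 6 passed after adjustment over the pairs. The strongest was Pla2g7 with 10 macrophage markers, at r = 0.75 (permutation p = 0.0513, adjusted p = 0.308) and rho = 0.57 (permutation p = 0.155). When the 2 mice with the most extreme marker means were dropped, r fell to 0.43. In this pair WT_EE mouse 1 had both the highest Pla2g7 level and the highest macrophage sum, 419 CPM. Pla2g4a with epithelial markers had r = -0.60 (permutation p = 0.127, adjusted p = 0.380) and rho = -0.47 (permutation p = 0.253). For Pla2g10 with goblet cell markers, Pla2g16 with adipocyte markers, Pla2g5 with smooth muscle markers and Pla2g4c with epithelial markers, r was 0.35, -0.10, -0.08 and 0.12, and rho was 0.18, -0.35, 0.00 and 0.05 (permutation p of r from 0.509 to 0.859). With the 2 most extreme mice of each marker list dropped, r was -0.79 for Pla2g4a, 0.84 for Pla2g4c, 0.53 for Pla2g10, -0.14 for Pla2g16 and 0.42 for Pla2g5, so that the values for Pla2g4c and Pla2g5 moved most with the choice of mice. At 9 mice these tests do not show that a relation is absent.

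Marker sums of other cell types also moved between mice. The macrophage sum was 267 to 398 CPM in WT_SE and 254 to 419 CPM in WT_EE, with none of 10 genes called. The adipocyte sum was 260 to 1331 CPM and 359 to 785 CPM, with 2 of 10 genes lower in WT_EE, and its highest value was in WT_SE mouse 1. B cell markers summed to 3.38 to 67.9 CPM and 0 to 8.64 CPM, with 3 of 6 tested genes lower and Cd79a at 0 counts in all libraries. The high B cell sums were those of WT_SE mice 1 and 2, 67.9 and 64.0 CPM, beside 3.38 and 8.20 CPM in WT_SE mice 3 and 5. Cd79b had counts only in WT_SE mice 1 and 2 and Pax5 only in WT_SE mouse 1, so these genes entered the fit through WT_SE. Goblet cell markers summed to 2682 to 4136 CPM and 3046 to 5183 CPM, with 3 of 10 genes higher and 1 lower. Among 10 smooth muscle markers 3 were called higher, and among 10 epithelial markers 1. Of all genes tested, 7.65% were called. The part of these shifts in the listed genes' values was not tested.

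Besides the 10 listed genes, 18 genes of phospholipases A2 and related proteins were searched, and 13 had counts. They are called other phospholipase A2 genes below, although not all encode a catalytic protein, Pafah1b1 among these. Pla2g1b, the pancreatic enzyme, and Pla2g2e, Pla2g4b, Pla2g4e and Hrasls5 had none. The most abundant were genes of platelet-activating factor hydrolysis, Pafah1b1 with 199 to 303 CPM over the 9 mice, Pafah1b3 with 80.8 to 141 CPM and Pafah1b2 with 64.0 to 129 CPM. Pafah2 had 64.9 to 131 CPM and the mitochondrial and peroxisomal enzyme Pnpla8 86.6 to 106 CPM. Pafah1b2, a catalytic subunit, was called, with 94.0, 64.0, 67.6 and 90.2 CPM in WT_SE and 110, 129, 114, 114 and 113 CPM in WT_EE. Its groups did not overlap, and its log2 fold change was 0.54 ± 0.19 (SE), with an adjusted p of 0.393 by edgeR and Benjamini-Hochberg.

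The other 11 of these genes that were tested were not called. Pla2g3, a secreted enzyme, had 5.57 to 10.9 CPM in WT_SE and 8.74 to 20.8 CPM in WT_EE, a log2 fold change of 0.84 ± 0.52 (SE). Pla2g12b had 7 counts in WT_SE and 3 in WT_EE, too few for a fold to be read. Pla2g2c, Pla2g2d, Pla2g2f and Hrasls had 10 to 20 counts over the 9 libraries, and their log2 fold changes lay between -0.12 and 0.41. Thus 1 of 12 tested genes (8.33%) was called, beside the 7.65% of all genes.

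Genes around the phospholipase A2 step were counted in lists of regulators, reacylation, lysophospholipase activity and arachidonate conversion. Together with the other phospholipase A2 genes these 5 lists held 88 genes, of which 78 were tested, 7 were called higher and 3 lower in WT_EE, a share of 12.8% beside the 7.65% of all genes. The lists were chosen with earlier results of these data known. The median log2 fold change was 0.04. Over the 7 libraries ending in L2, 3 of the 78 list genes (3.85%) were called, beside 3.98% of all genes. With DESeq2 4 of 78 (5.13%) were called beside 3.69% of all genes, and with the ending as a term 4 of 78 (5.13%) beside 3.94%. Without WT_SE mouse 3, 5 of 78 (6.41%) were called beside 5.19%.

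The arachidonate list had 5 of the 10 calls, with 3 of 19 tested genes higher and 2 lower (26.3%, beside the 7.65% of all genes), and a median of 0.17. Ptgs2, the inducible cyclooxygenase, had 2.61, 2.78, 3.38 and 5.47 CPM in WT_SE and 12.95, 41.8, 19.7, 34.0 and 34.7 CPM in WT_EE. No WT_SE mouse passed the floor, every WT_EE mouse did, and the groups did not overlap. The log2 fold change was 2.84 ± 0.55 (SE, edgeR, Benjamini-Hochberg adjusted p = 0.0249). The summed counts were 53 in WT_EE and 5 in WT_SE. Over the summed library totals after TMM scaling their ratio was 7.58, with an exact 95% interval of 3.05 to 24.3 for counting error. Ptgs2 was the only gene of the 5 lists called after adjustment. This adjusted call was kept in 9 and lost in 12 of 21 alternative settings, among them DESeq2 (adjusted p = 0.303), limma-voom (0.201) and the libraries ending in L2 (0.718), with adjusted p from 0.000666 to 0.718 over all 21. The unadjusted call was kept in all 21.

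The prostaglandin E synthases were called in different directions, none after adjustment, and the unadjusted calls of Ptges2, Ptges and Ptges3 were lost in 5, 5 and 11 of the 21 settings. Ptges2 had 10.1 to 19.5 CPM in WT_SE and 6.97 to 48.1 CPM in WT_EE (log2 fold change 1.05 ± 0.41, SE). Ptges3 had 172 to 202 CPM in WT_SE and 136 to 155 CPM in WT_EE (-0.31 ± 0.14, SE), without overlap. Ptges, the inducible synthase, had 15 counts in WT_SE and 5 in WT_EE, a ratio of 0.238 with an exact 95% interval of 0.0678 to 0.690 for counting error. Lta4h had 67.6 to 100 CPM in WT_SE and 101 to 133 CPM in WT_EE (0.39 ± 0.19, SE), without overlap, and its call was lost in 12 of the 21 settings. The most abundant genes of the list, Cbr1 and Hpgd, which act on finished prostaglandins, had log2 fold changes of -0.21 ± 0.14 and -0.28 ± 0.15 (SE) and were not called.

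Among regulators 1 of 11 tested genes was called. Anxa1, which encodes an annexin known to restrain cytosolic phospholipase A2, had 57.5 to 167 CPM in WT_SE and 123 to 216 CPM in WT_EE (log2 fold change 0.49 ± 0.20, SE; edgeR adjusted p = 0.509), and its ranges overlapped. Its call was lost in 7 of the 21 settings. Mapk3, a kinase that phosphorylates the Pla2g4a product, had a log2 fold change of 0.05 ± 0.14 (SE), and Anxa2 and S100a10 had -0.21 ± 0.15 and 0.08 ± 0.15 (SE).

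None of 18 tested reacylation genes was called by edgeR at an unadjusted p under 0.05. The most abundant were Acsl3, an acyl-CoA synthetase with a log2 fold change of -0.20 ± 0.14 (SE), and the acyltransferases Mboat1 (0.16 ± 0.15, SE) and Agpat4 (-0.05 ± 0.18, SE). The smallest p values in this list belonged to Acsl3, Acsl6, which had 11 counts, and Lpcat3 (-0.19 ± 0.17, SE).

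Of 18 tested genes of lysophospholipase and related activity, Abhd4 and Enpp6 were called higher and Enpp2 lower, calls that were lost in 9, 5 and 3 of the 21 settings. Enpp2 encodes autotaxin, which turns lysophosphatidylcholine into lysophosphatidic acid. It had 47.3 to 86.1 CPM in WT_SE and 23.1 to 52.3 CPM in WT_EE (log2 fold change -0.73 ± 0.27, SE; edgeR adjusted p = 0.449). Abhd4 had 38.3 to 94.7 CPM and 62.7 to 127 CPM (0.50 ± 0.23, SE), and Enpp6 had 0 to 3 counts in WT_SE and 3 to 9 counts in WT_EE. The most abundant of the list, Gdpd1, Lypla1 and Abhd6, had log2 fold changes of -0.28 ± 0.14, -0.29 ± 0.15 and -0.28 ± 0.18 (SE) and were not called.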

How the data were processed

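The authors deposited 1 table of counts per mouse from QuantSeq 3′ FWD libraries of colon, with unique molecular identifiers, as whole numbers of counts per Ensembl gene without normalization. The submitters' processing notes name fastp 0.20.0, STAR 2.7.0f, featureCounts 1.6.0, UMI-tools and GRCm38. The setting for strand is not given in the sources used here. A gene missing from a table was taken as 0 counts, and symbols, positions and overlaps came from GENCODE release M21 on GRCm38.

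Genes that reached 4 CPM in any library were fitted in R 4.3.3 with edgeR 4.0.16 (TMM, quasi-likelihood test, environment as the only term), with Benjamini-Hochberg adjustment over 17441 genes. A gene was called at an unadjusted p under 0.05. Standard errors were derived from the fold change and its F value. Values per mouse are normalized CPM, from library totals of 295535 to 454043 counts. The fits were tested on simulated counts with the same spread for every gene, so this does not cover genes as variable as Pla2g4c and Pla2g2a. Correlations used log2 CPM with a prior count of 2, in python 3.11.15 with scipy 1.17.1. Figures were drawn with matplotlib 3.10.9. Replicates of the same environment differed by more than sampling noise (chi-square per degree of freedom 1.19 to 2.55), and no library was merged. The labels name mice by number. The p-values of the fits set the difference between environments against the spread between mice of the same environment. They treat each mouse as independent, although the labels give no cage.

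The listed genes, the gene lists and the markers were chosen with earlier results of these data known. Named genes are the 10 listed genes, other phospholipase A2 genes with at least 10 counts, up to 3 genes of smallest p and 3 of highest mean in each other list, and the 5 genes most correlated with Pla2g4c. The values of 1 gene that this rule names are not reported here. Marker genes and the genes more variable than Pla2g4c are named besides, the latter and the position markers after their values were seen. Alternatives were other scalings and filters, DESeq2 1.42.0, limma-voom (limma 3.58.1), the library name ending, a replicate block, and each mouse left out in turn.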

Additional observations from a re-analysis of the deposited data

Results flagged for a closer look

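Dixon's test at its 95% critical value was applied to 64 groups of 4 or 5 mice, where chance gives about 3.2 outliers, and 4 were found. Pla2g2a in WT_SE mouse 5 had 41.0 CPM, and the next highest WT_SE mouse had 5.22 CPM. Pla2g2c in WT_EE mouse 2 had 10.5 CPM, which is 3 counts, beside at most 2.31 CPM in the other WT_EE mice. Pafah1b2 in WT_EE mouse 2 had 129 CPM, beside 110 to 114 CPM. The summed macrophage markers of WT_EE mouse 1 had 419 CPM, beside 254 to 289 CPM in the other WT_EE mice.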

How the results depend on the processing

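Under 21 alternatives the log2 fold change of Pla2g4c stayed between 1.96 and 3.88, and was 2.17 to 3.88 when each mouse was left out in turn. The listed genes Pla2g12a, Pla2g16, Pla2g5, Pla2g15 and Pla2g7 kept their sign in 12, 15, 17, 19 and 20 of the 21. The count of all genes called, 1334, was 643 with DESeq2, 688 when the ending of the library name was added as a term and 680 over the libraries ending in L2, and 899 to 1581 with a mouse left out, lowest without WT_SE mouse 3. The count in the 5 lists around the phospholipase A2 step, 10, was 4 with DESeq2, 4 with the ending as a term and 3 over the libraries ending in L2, and 5 to 12 with a mouse left out, lowest without WT_SE mouse 3. The cause was not tested; the fits without mice hold fewer samples. Genes called after adjustment, 7, were 143 without a filter on low counts, 0 with DESeq2, limma-voom, a filter of 4 CPM in at least 4 libraries, the ending as a term, the libraries ending in L2 and without WT_SE mouse 3, up to 48 with another mouse left out, and 70 with the mouse number as a replicate block. The share of calls that were higher in WT_EE, 56.3%, was 45.0% with upper quartile scaling and 45.2% without WT_EE mice 2 and 4. Mouse numbers name different animals in each environment, and the deviations of same-numbered mice correlated at -0.03 to 0.11, so the replicate block is no pairing; with it 1170 genes and 9 list genes were called, and Pla2g4c had a log2 fold change of 2.09. At 295535 to 454043 counts per library, genes near 3 counts, Pla2g6 among them, were not resolved.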
